A study of Mus musculus with 6 samples.

Results

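The genes described here are 33 listed mouse genes of the interferon response and of antigen presentation, measured in heart tissue. They comprised 22 interferon-induced genes and their regulators, 6 genes of the major histocompatibility complex (MHC) class I pathway and 5 genes of the class II pathway. A gene was counted as measured when the array annotation gave it at least 1 probe set, a group of short probes read as a single value, that was assigned to that gene and to no other. This held for 31 of the 33 genes, with 59 probe sets between them, among 18194 genes measured in all. Isg15 and Ifi44 had none and are not analysed here. Of the 59 probe sets, 48 passed a brightness filter, a mean over the 6 arrays above log2 3.285, the median of all probe sets. These 48 stood for 29 genes, namely 19 interferon-induced genes, 6 class I genes and 4 class II genes.

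RNA was measured on 6 Affymetrix arrays. In 3 of them the heart came from C57BL/6 mice labelled as overexpressing hAT1R, the human type 1 receptor of the hormone angiotensin II, and in 3 from normal C57BL/6 mice without the transgene. The series description calls the samples matched for age and sex, but by the sex-linked transcripts given further on the groups did not hold equal numbers of each sex. The labels give neither the age nor the promoter that drives the transgene, and nothing in them states how many animals the arrays came from. The p-values therefore measure only the spread between these arrays, part of which may be technical. The question was which transcripts of the heart differ in mice that carry the transgene.

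Interferons are signalling proteins released by infected or stimulated cells. They bind receptors on the cell surface, where JAK kinases phosphorylate STAT transcription factors, and STAT2 with IRF9 takes part in a complex that binds the interferon-stimulated response element and switches on antiviral effector genes. Interferon gamma acts mainly through another element, the gamma-activated sequence, and strongly induces both arms of antigen presentation. In the class I arm the immunoproteasome cuts proteins of the cytosol, the TAP transporter carries the peptides into the endoplasmic reticulum, and a heavy chain with beta-2 microglobulin displays them on nearly every nucleated cell. Class II molecules display peptides from endosomes, are made chiefly by macrophages, dendritic cells and B cells, and depend on the transactivator CIITA.

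The promoter stretches below show which letters members of each class share. Whether these letters bear on the values of the arrays was not tested. B2m is shown as the class I gene with the first motif. RefSeq promoters on GRCm38.p6, from 250 bases before to 50 bases after the start site, were matched for 24 of the 31 measured genes. The core of the interferon-stimulated response element was searched on both strands as GAAANNGAAA. It was found in 10 of 16 interferon-induced genes, in 1 of 6 class I genes (B2m) and in 0 of 2 class II genes, beside 3.99% of all 27025 genes with a promoter. The stretches run 5′ to 3′ on the gene's own strand, with 15 bases on either side and the matches, read on either strand, in capitals.
Ifit1 (chr19:34640770-34640828, plus strand): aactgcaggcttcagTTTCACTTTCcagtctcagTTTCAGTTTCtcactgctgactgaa
Ifit3 (chr19:34583358-34583431, plus strand): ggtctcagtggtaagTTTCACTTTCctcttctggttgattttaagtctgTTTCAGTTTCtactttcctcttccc
Gbp2 (chr3:142620589-142620628, plus strand): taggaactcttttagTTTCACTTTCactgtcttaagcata
Gbp3 (chr3:142559984-142560029, plus strand): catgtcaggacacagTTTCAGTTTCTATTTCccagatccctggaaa
Oas1a (chr5:120907515-120907560, minus strand): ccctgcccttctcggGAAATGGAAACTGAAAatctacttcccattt
Rsad2 (chr12:26456548-26456587, minus strand): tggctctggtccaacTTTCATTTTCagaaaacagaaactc
Stat2 (chr10:128270261-128270300, plus strand): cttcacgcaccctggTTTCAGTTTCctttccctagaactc
B2m (chr2:122147533-122147572, plus strand): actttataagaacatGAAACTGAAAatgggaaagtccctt
In Ifit1 the matches began 104 and 85 bases upstream of the start site, in Ifit3 156 and 122, in Gbp2 59 and in Rsad2 120 bases upstream. Gbp3 and Oas1a each held 2 overlapping matches. The gamma-activated sequence, searched as TTCNNNGAA, which reads the same on both strands, lay in 4 of the 16 interferon-induced genes, among them Irf1, and in 1 of the 6 class I genes (Psmb8), beside 9.55% of all genes. Its match in Bst2 overlapped that of the response element. A match of letters is a description and does not show that a factor binds there.

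The Y box, an inverted CCAAT element known from MHC promoters, was searched on both strands as CTGATTGG. It lay in both class II genes with a promoter entry, in 4 of 6 class I genes and in 1 of 16 interferon-induced genes (Cxcl10), beside 4.7% of all genes. The stretches below show it, in capitals, in genes of the class II and the class I arm.
H2-Aa (chr17:34287852-34287889, minus strand): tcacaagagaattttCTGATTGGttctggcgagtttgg
H2-Eb1 (chr17:34305790-34305827, plus strand): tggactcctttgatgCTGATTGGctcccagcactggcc
H2-D1 (chr17:35263026-35263063, plus strand): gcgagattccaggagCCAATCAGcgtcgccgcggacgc
Psmb9 (chr17:34187319-34187356, minus strand): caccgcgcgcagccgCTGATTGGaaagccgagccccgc
The Psmb9 stretch lies in the promoter window of Tap1 as well, which is read from the opposite strand. H2-K1 was the other class I gene with the match.

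Some properties of the arrays bear on every result. In the instrument's records the word typed in the chip lot field was "control" for the 3 arrays labelled transgenic and "transgene" for the 3 labelled non-transgenic. If those words were right, each sign below would turn, and no probe set for the human transgene was used here, so transgenic means labelled transgenic throughout. Xist, the RNA of the inactive X chromosome, lay at log2 9.48 or above on transgenic arrays 1 and 3 and non-transgenic array 2 and at 3.01 or below on the others. Eif2s3y, a gene of the Y chromosome, lay at 3.58 or below on the arrays high in Xist and at 9.17 or above on the others. Each group thus held both sexes, but with 2 of 3 transgenic arrays and 1 of 3 non-transgenic arrays high in Xist, which goes against the statement that sex was matched. Non-transgenic arrays 2 and 3 were washed on fluidics station 3 and the other 4 arrays on station 2. In scan order transgenic arrays 1, 2 and 3 came at places 3, 2 and 1, and non-transgenic arrays 1, 2 and 3 at places 4, 6 and 5. All were scanned on 1 day, and scan order and group cannot be told apart. Array medians lay between log2 3.25 and 3.31.

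No member differed between the groups at an adjusted p under 0.05 in limma, a linear model that moderates each gene's variance, with Benjamini-Hochberg adjustment over the whole table. This held for 0 of 48 probe sets, where 0.218% of all 22518 probe sets passed, and for 0 of 29 genes, where 0.563% of all 11016 genes passed. Where a gene had several probe sets, the brightest on average stood for it. At an unadjusted p under 0.05 in limma there were 2 member probe sets, where 16.4% of all probe sets passed, and 1 member gene, Rsad2, where 18.5% of all genes passed. The change, transgenic minus non-transgenic on the log2 scale, was below 0 in 20 of the 29 genes, and in 47.6% of all genes. Its median was -0.16 over the 19 interferon-induced genes, -0.23 over the 6 class I genes and -0.04 over the 4 class II genes, beside 0.01 over all genes. The 95% intervals of 21 of the 29 genes reached beyond a log2 change of 1, a doubling or halving, so a change of that size was within what these arrays allow for them.

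**Figure D1:**
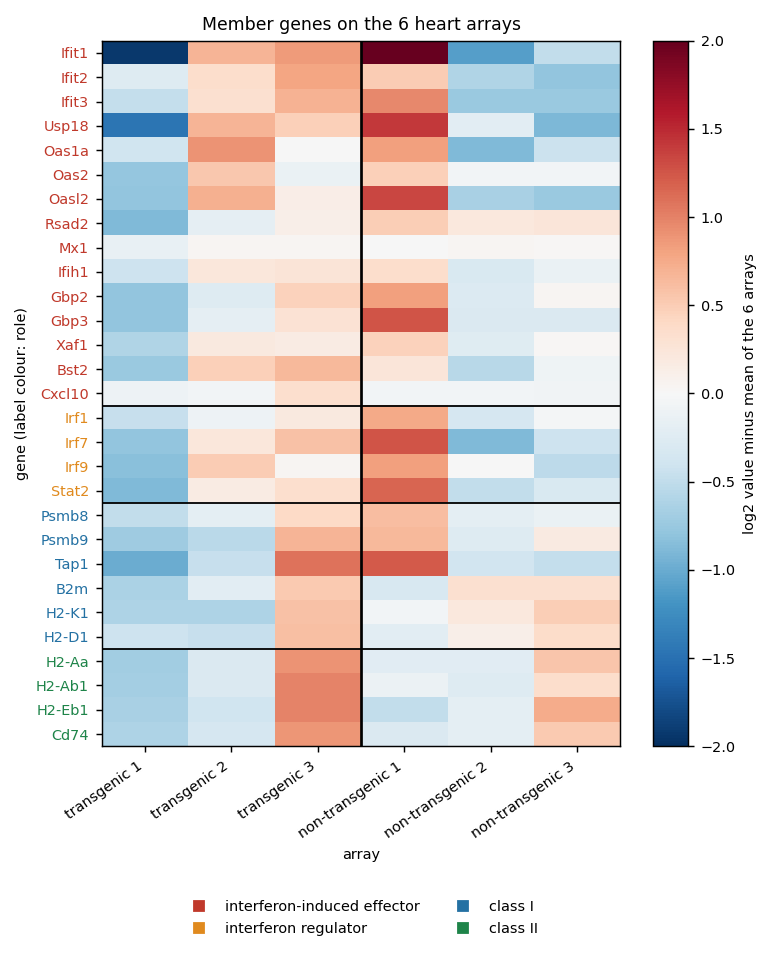
Log2 value of each of the 29 member genes (vertical axis, by role) minus its mean over the 6 arrays (horizontal axis), with the colour scale ending at 2 in either direction. Of the 19 interferon-induced genes 13 are highest on non-transgenic array 1 and 15 are lowest on transgenic array 1, and all 4 class II genes are highest on transgenic array 3.

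The antiviral effectors varied widely between arrays of the same group. Ifit1, whose protein binds foreign RNA, had log2 values of 3.92, 6.54 and 6.71 on transgenic arrays 1, 2 and 3 and 7.86, 4.75 and 5.36 on non-transgenic arrays 1, 2 and 3. It was lowest on transgenic array 1 and highest on non-transgenic array 1, and the groups overlapped, with means of 5.72 ± 1.57 against 5.99 ± 1.65 (SD, n = 3 each). Its change was -0.27 ± 1.05 (SE, n = 3 per group, limma adjusted p = 0.923). Usp18, the protease that removes ISG15 from proteins and restrains the interferon receptor, had log2 values of 4.39, 6.54 and 6.33 on the transgenic arrays and 7.27, 5.65 and 4.95 on the non-transgenic arrays. Its lowest and highest arrays were those of Ifit1, and its change was -0.20 ± 0.78 (SE, n = 3 per group, limma adjusted p = 0.921).

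Ifit2 and Ifit3 encode relatives of Ifit1 with tetratricopeptide repeats. Ifit2 had log2 values of 7.81, 8.41 and 8.86 on the transgenic arrays and 8.58, 7.46 and 7.27 on the non-transgenic arrays, and Ifit3 of 7.95, 8.75 and 9.12 on the transgenic arrays and 9.39, 7.69 and 7.69 on the non-transgenic arrays. In both genes transgenic array 1 was the lowest of its group and non-transgenic array 1 the highest of its group, and the groups overlapped. The changes were 0.59 ± 0.41 (SE, n = 3 per group, limma adjusted p = 0.49) for Ifit2, the highest of any member, and 0.35 ± 0.53 for Ifit3 (limma adjusted p = 0.771).

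The oligoadenylate synthetases make the second messenger that activates RNase L, and Oasl2 belongs to the same family. Oas1a had log2 values of 5.44, 6.73 and 5.83 on the transgenic arrays and 6.65, 4.95 and 5.41 on the non-transgenic arrays. Oas2 had log2 values of 6.59, 7.89 and 7.22 on the transgenic arrays and 7.84, 7.31 and 7.30 on the non-transgenic arrays. Oasl2 had log2 values of 6.44, 7.94 and 7.35 on the transgenic arrays and 8.55, 6.57 and 6.48 on the non-transgenic arrays. Transgenic array 1 was the lowest and non-transgenic array 1 the highest of its own group in all 3 genes, while transgenic array 2 was above transgenic array 3. The groups overlapped, with changes of 0.33, -0.25 and 0.04, and the limma adjusted p was 0.737 or higher for each.

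Rsad2, which encodes viperin, an enzyme that makes a chain-terminating nucleotide against viral RNA synthesis, was the member with the smallest p. Its brightest probe set had log2 values of 7.97, 8.68 and 8.97 on transgenic arrays 1, 2 and 3 and 9.35, 9.07 and 9.09 on non-transgenic arrays 1, 2 and 3. All 3 transgenic values lay below all 3 non-transgenic values, with means of 8.54 ± 0.52 against 9.17 ± 0.16 (SD, n = 3 each). The change was -0.63 ± 0.26 (SE, n = 3 per group, limma adjusted p = 0.264), its 95% interval ran from -1.25 to -0.01, and the unadjusted p was 0.0471 in the same limma fit. Its second probe set had log2 values of 6.20, 6.86 and 6.90 on the transgenic arrays and 7.30, 7.52 and 7.21 on the non-transgenic arrays, a change of -0.69, and the third of 5.32, 6.67 and 6.88 on the transgenic arrays and 7.16, 7.30 and 7.10 on the non-transgenic arrays, a change of -0.89. In neither did the groups overlap, and transgenic array 1 was the lowest in each. Rsad2 was the 1 member gene of 29 without overlap, and its 3 probe sets were the 3 of 48, where 10.9% of all genes and 9.78% of all probe sets were lower in the transgenic group without overlap. The limma adjusted p of the 3 probe sets over the whole table was 0.303, 0.198 and 0.341. With each array left out in turn the change of Rsad2 ran from -0.85 to -0.34.

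Gbp2 and Gbp3 encode guanylate-binding proteins, GTPases that attack the membranes around intracellular pathogens. Gbp2 had log2 values of 8.33, 8.87 and 9.59 on the transgenic arrays and 9.95, 8.85 and 9.16 on the non-transgenic arrays. Gbp3 had log2 values of 7.54, 8.16 and 8.62 on the transgenic arrays and 9.59, 8.05 and 8.04 on the non-transgenic arrays. Both were highest on non-transgenic array 1 and lowest on transgenic array 1, and the groups overlapped. The changes were -0.39 ± 0.40 and -0.45 ± 0.48 (SE, limma adjusted p = 0.649 and 0.663).

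Bst2, or tetherin, holds budding virus at the cell surface. It had log2 values of 7.05, 8.26 and 8.44 on the transgenic arrays and 8.03, 7.23 and 7.70 on the non-transgenic arrays, and was lowest on transgenic array 1 and highest on transgenic array 3. Ifih1, a sensor of double-stranded RNA, had log2 values of 6.90 to 7.57 on the transgenic arrays and up to 7.66 on the non-transgenic arrays, with means of 7.33 ± 0.38 against 7.28 ± 0.34 (SD, n = 3 each). Xaf1, a pro-apoptotic factor, had log2 values of 7.96, 8.77 and 8.74 on the transgenic arrays and 9.03, 8.32 and 8.59 on the non-transgenic arrays. Both were highest on non-transgenic array 1 and lowest on transgenic array 1. Changes in these 3 genes were 0.26, 0.05 and -0.16, with a limma adjusted p of 0.773 or higher and overlapping groups.

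A few effectors lay near the filter. Mx1, an antiviral GTPase whose allele in C57BL/6 is known to be nonfunctional, stayed between log2 3.28 and 3.47. Its relative Mx2 lay below the filter, between 3.13 and 3.20. Cxcl10, a chemokine that draws T cells, was at 4.02 on transgenic array 3 and between 3.59 and 3.63 on the other 5 arrays. Mx1 and Cxcl10 had changes of -0.05 and 0.12, with overlapping groups (limma adjusted p = 0.795 and 0.643).

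**Figure D2:**
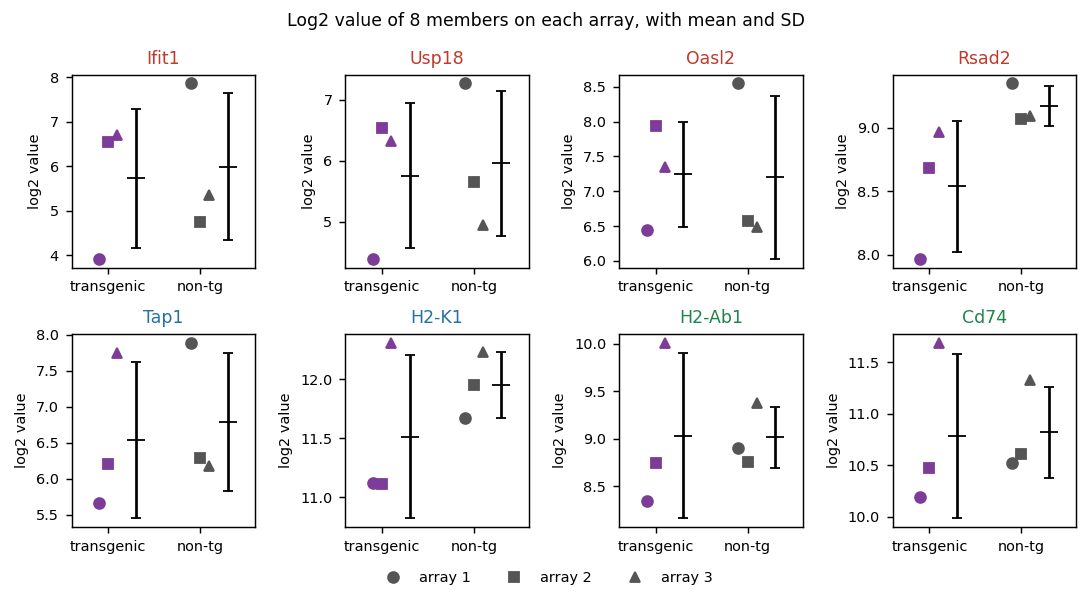
Log2 value (vertical axis) of 8 members on each array of the transgenic and the non-transgenic group (horizontal axis), with symbols for arrays 1, 2 and 3 and a bar for mean ± SD (n = 3). In Ifit1, Usp18 and Oasl2 non-transgenic array 1 stands above the other arrays, in H2-Ab1 and Cd74 transgenic array 3 does, and Rsad2 is the panel without overlap between the groups.

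The 4 regulators had the array pattern of most effectors. Stat2, the partner of IRF9 in the factor that drives most of these genes, had log2 values of 5.83, 6.88 and 7.04 on the transgenic arrays and 7.88, 6.22 and 6.41 on the non-transgenic arrays. Irf9 had log2 values of 6.43, 7.78 and 7.30 on the transgenic arrays and 8.09, 7.25 and 6.74 on the non-transgenic arrays. Irf7, the factor that amplifies the production of type I interferon, had log2 values of 3.94, 4.96 and 5.32 on the transgenic arrays and 5.99, 3.84 and 4.31 on the non-transgenic arrays. In these 3 genes non-transgenic array 1 was the highest of all 6, and the groups overlapped. Irf1, which acts downstream of interferon gamma, had log2 values of 8.09, 8.45 and 8.74 on the transgenic arrays and 9.31, 8.21 and 8.51 on the non-transgenic arrays, with the same array highest. The changes were -0.25 for Stat2, -0.19 for Irf9, 0.03 for Irf7 and -0.25 for Irf1, with limma adjusted p-values from 0.712 to 0.988.

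All 6 class I genes had a change below 0 in their brightest probe set, by 0.18 to 0.44 on the log2 scale, and none passed the test. Over all 15 class I probe sets above the filter the change ran from -0.44 to -0.00. Without transgenic array 1 the median of the 6 genes went from -0.23 to -0.01, with 3 of 6 below 0, and without non-transgenic array 1 it was -0.24, with 4 of 6 below 0. Tap1, a subunit of the peptide transporter, had log2 values of 5.66, 6.20 and 7.75 on the transgenic arrays and 7.89, 6.28 and 6.18 on the non-transgenic arrays. It was high on transgenic array 3 and non-transgenic array 1, and its change was -0.24 ± 0.67 (SE, n = 3 per group, limma adjusted p = 0.885). Psmb8 and Psmb9 encode catalytic subunits of the immunoproteasome. Psmb8 had log2 values of 7.56, 7.86 and 8.46 on the transgenic arrays and 8.68, 7.86 and 7.92 on the non-transgenic arrays. Psmb9 had log2 values of 6.39, 6.55 and 7.78 on the transgenic arrays and 7.74, 6.84 and 7.28 on the non-transgenic arrays. Both were lowest on transgenic array 1, and both were high on transgenic array 3 and non-transgenic array 1. Their changes were -0.19 and -0.38 (limma adjusted p = 0.782 and 0.67).

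The heavy chains and their light chain differed from this. H2-K1, a classical class I heavy chain, had log2 values of 11.12, 11.11 and 12.31 on transgenic arrays 1, 2 and 3 and 11.67, 11.95 and 12.23 on non-transgenic arrays 1, 2 and 3. H2-D1, another, had log2 values of 11.13, 11.08 and 12.14 on the transgenic arrays and 11.32, 11.66 and 11.90 on the non-transgenic arrays. B2m, the light chain they share, had log2 values of 12.89, 13.31 and 14.04 on the transgenic arrays and 13.21, 13.85 and 13.84 on the non-transgenic arrays. In these 3 genes transgenic array 3 was the highest of all 6 and non-transgenic array 1 the lowest of its group. The changes were -0.44 ± 0.35 (SE, n = 3 per group, limma adjusted p = 0.55) for H2-K1, -0.18 for H2-D1 and -0.22 for B2m (limma adjusted p = 0.805 and 0.762 for the latter genes). Their dimmer probe sets above the filter gave -0.16, -0.39 and -0.18 for H2-K1, -0.15, -0.04, -0.02 and -0.00 for H2-D1 and -0.20 for B2m. Of the 15 class I probe sets above the filter 9 were of a type whose probes may also bind near-identical transcripts, so signal of the heavy chain genes may be shared among them.

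The class II genes moved together and showed almost no difference in group means. H2-Aa encodes the alpha chain of the I-A molecule and had log2 values of 9.78, 10.19 and 11.38 on the transgenic arrays and 10.25, 10.25 and 11.04 on the non-transgenic arrays. H2-Ab1, its beta chain, had log2 values of 8.35, 8.74 and 10.01 on the transgenic arrays and 8.90, 8.76 and 9.38 on the non-transgenic arrays. Both were highest on transgenic array 3 and lowest on transgenic array 1. H2-Eb1, the beta chain of I-E, whose alpha chain C57BL/6 mice are known not to make, had log2 values of 8.80, 9.06 and 10.44 on the transgenic arrays and 8.96, 9.26 and 10.19 on the non-transgenic arrays. Cd74, the invariant chain that guides class II molecules to the endosome, had log2 values of 10.19, 10.47 and 11.69 on the transgenic arrays and 10.52, 10.61 and 11.33 on the non-transgenic arrays. These 2 genes had the same highest and lowest arrays. The changes were -0.06 ± 0.44 for H2-Aa, 0.02 ± 0.43 for H2-Ab1, -0.04 ± 0.50 for H2-Eb1 and -0.03 ± 0.43 for Cd74 (SE), with limma adjusted p-values from 0.957 to 0.987. Of the 9 class II probe sets above the filter 4 were of the type whose probes may also bind near-identical transcripts. A dim probe set of H2-Aa had a change of 0.44 (limma adjusted p = 0.479), with 4.49 on transgenic array 3 and 3.35 to 3.59 on the other arrays. The changes of the other class II probe sets lay between -0.06 and 0.08. Ciita, the master regulator of the class, lay below the filter in all 3 of its probe sets, the brightest between 2.38 and 2.80.

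The arrays that stood out differed between the classes. Non-transgenic array 1 lay at least 1 log2 unit above the mean of the other non-transgenic arrays in 10 of 19 interferon-induced genes, 1 of 6 class I genes and 0 of 4 class II genes, where 0.89% of all genes did. The 11 members among them were 11.2% of all 98 such genes. Transgenic array 1 lay at least 1 log2 unit below the mean of the other transgenic arrays in 7 of 19 interferon-induced genes, 1 of 6 class I genes and 2 of 4 class II genes, where 0.69% of all genes did. Transgenic array 3 lay at least 1 log2 unit above the mean of the other transgenic arrays in 1 of 19, 4 of 6 and 4 of 4 genes of the same classes, where 0.663% of all genes did. In rank, non-transgenic array 1 was above both others of its group in 18 of 19 interferon-induced genes, where 41.4% of all genes were so, and transgenic array 1 was below both others in 19 of 19, where 35.2% were. Transgenic array 3 was above both others of its group in 6 of 6 class I and 4 of 4 class II genes, where 39.2% of all genes were so. It was the highest of all 6 arrays in 4 of 6 and 4 of 4, where 22.9% were. Among the non-transgenic arrays the class II genes were highest on array 3, in 4 of 4, where 23.2% of all genes were. Members of a class share the same 6 arrays, so their moving together on an array is a single observation and not as many as there are genes.

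The mean deviation of the 19 interferon-induced genes from their 6-array mean was -0.71, 0.28 and 0.33 log2 units on transgenic arrays 1, 2 and 3 and 0.80, -0.39 and -0.30 on non-transgenic arrays 1, 2 and 3. For the 4 class II genes it was -0.66, -0.32 and 0.94 on the transgenic arrays and -0.28, -0.22 and 0.54 on the non-transgenic arrays. Both classes were low on transgenic array 1, while on non-transgenic array 1 the first was high and the second was not. The values of the class I genes were -0.64, -0.42 and 0.64 on the transgenic arrays and 0.32, -0.03 and 0.12 on the non-transgenic arrays. Over all 11016 genes the mean deviation stayed between -0.04 and 0.04 on each array. Xist was high on transgenic arrays 1 and 3 and non-transgenic array 2. On these the means were -0.71, 0.33 and -0.39 for interferon-induced, -0.64, 0.64 and -0.03 for class I and -0.66, 0.94 and -0.22 for class II genes. On transgenic array 2 and non-transgenic arrays 1 and 3, low in Xist, they were 0.28, 0.80 and -0.30, -0.42, 0.32 and 0.12, and -0.32, -0.28 and 0.54 for the same classes. With the Xist level as a term, added after seeing the data, the median change of the interferon-induced genes went from -0.16 to 0.07, and the part of sex in these values was not tested further.

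**Figure D3:**
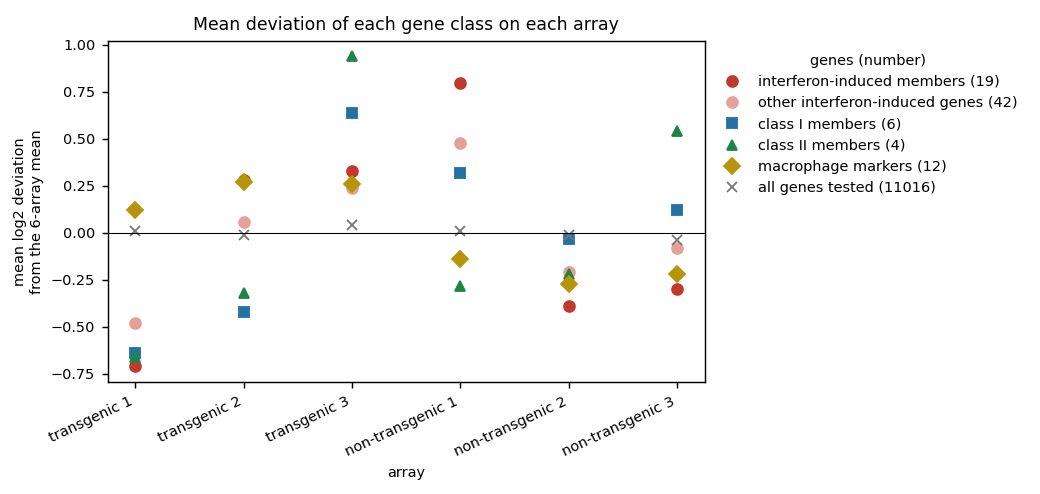
Mean log2 deviation from the 6-array mean (vertical axis) of 6 groups of genes on each array (horizontal axis), with a symbol per group and the number of genes in the legend. Interferon-induced members reach 0.80 on non-transgenic array 1 and class II members 0.94 on transgenic array 3, while all genes tested stay between -0.04 and 0.04.

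The spread within groups was wide for these genes. The within-group SD had a median of 0.62 log2 units over the 29 members, beside 0.14 over all genes, and it was 0.62 for the interferon-induced genes, 0.51 for class I and 0.66 for class II. It was at least 0.5 in 13 of 19 interferon-induced genes, 3 of 6 class I genes and 4 of 4 class II genes, where 2.79% of all genes reached that value. It was highest in Ifit1, at 1.61, and lowest in Mx1, at 0.08.

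**Figure D4:**
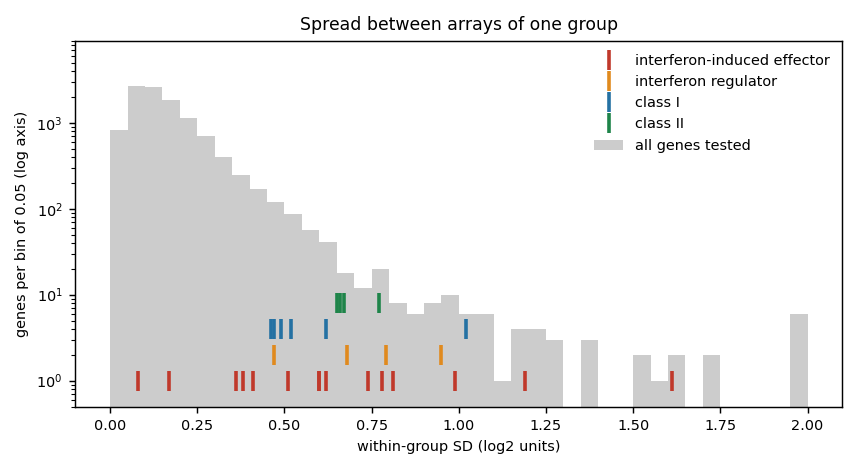
Number of genes on a log axis (vertical) by within-group SD in log2 units (horizontal) for all genes tested, the last bin holding every value above its lower edge, with a tick for each of the 29 members coloured by role. The members' median of 0.62 lies to the right of the median of all genes, 0.14, and the height of the ticks has no meaning.

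The median change of the interferon-induced and of the class II genes changed direction when single arrays were left out, while that of class I stayed below 0. Without non-transgenic array 1 the median change of the interferon-induced genes was 0.25, with 4 of 19 genes below 0, and without transgenic array 1 it was 0.20, again with 4 of 19 below 0. Without transgenic array 3 it was -0.26. The class I median ran from -0.67 without transgenic array 3 to -0.01 without transgenic array 1, and was -0.15 without transgenic array 2. The class II median was -0.51 without transgenic array 3. Without transgenic array 1 the class II median was 0.27, with 0 of 4 genes below 0, and without transgenic array 2 or non-transgenic array 3 it was 0.14 and 0.21, again with 0 of 4. Of the 29 genes 23 turned sign in at least 1 of the 6 fits that left out an array, and no member passed limma's adjusted threshold in any of them. Without transgenic array 3 there were 4 of 29 member genes at an unadjusted p under 0.05 in limma, where 12.7% of all genes were in that fit. They were Rsad2, Psmb9, H2-K1 and H2-D1. Of the member probe sets 11 of 48 were, where 11.2% of all probe sets were. Rsad2, H2-K1 and H2-D1 have several probe sets each, which read the same gene again and are not separate members. On station 2 alone, where non-transgenic array 1 is the only array of its group, the median change of the interferon-induced genes was -0.81, with 18 of 19 below 0. On that station the group and this array cannot be told apart.

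**Figure D5:**
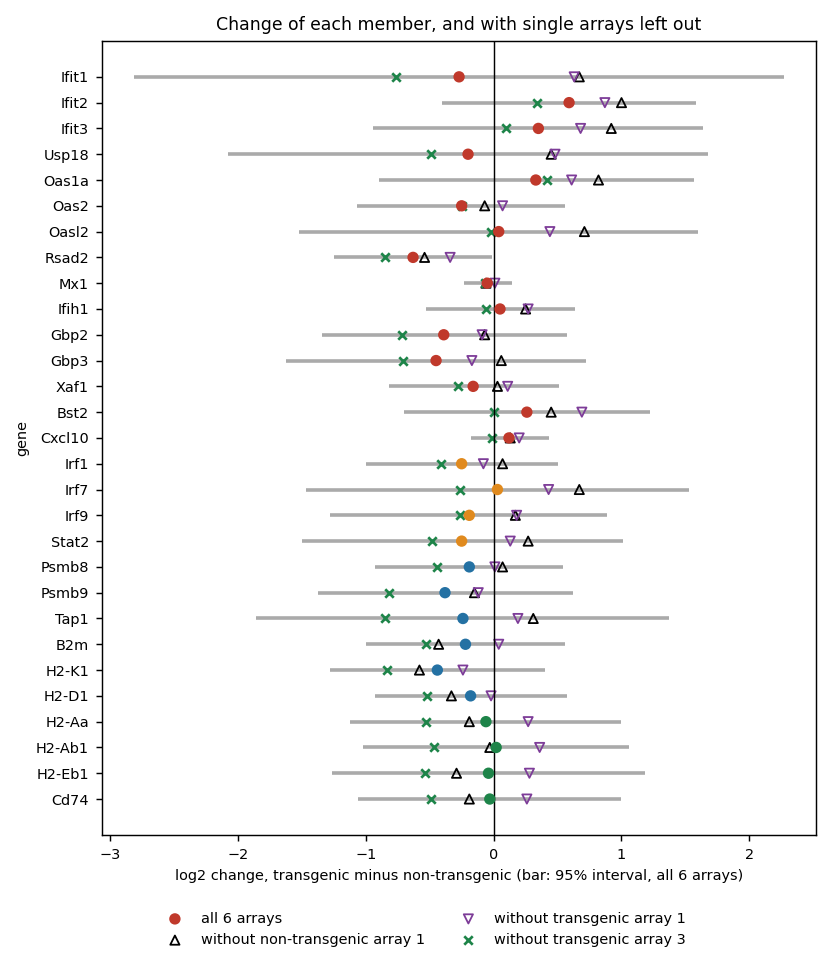
Log2 change, transgenic minus non-transgenic (horizontal axis), of the 29 member genes (vertical axis), with the 95% interval over all 6 arrays as a bar, filled points coloured by role, and open symbols or crosses for fits without non-transgenic array 1, transgenic array 1 or transgenic array 3. Every interval but that of Rsad2, which ends at -0.01, spans 0, and for Ifit1 the change goes from -0.27 to 0.67 without non-transgenic array 1.

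Other genes of the pathway, in lists chosen with earlier results of these data known, gave 0 calls in limma in every list. Among 42 other interferon-induced genes the median change was -0.07, and 2 passed an unadjusted p of 0.05 in limma, where 18.5% of all genes did. The 2 with the smallest p were Tor3a (0.34, limma adjusted p = 0.15) and Ifitm2, an antiviral membrane protein (0.28, limma adjusted p = 0.193). Of these 42 genes 24 were highest on non-transgenic array 1 and 26 lowest on transgenic array 1, where 23.9% and 12.5% of all genes were. Rtp4, chosen after its values were seen, had log2 values of 7.25, 8.78 and 8.16 on the transgenic arrays and 9.61, 7.35 and 7.49 on the non-transgenic arrays. Igtp, an interferon-inducible GTPase chosen in the same way, had log2 values of 8.36, 8.35 and 9.85 on the transgenic arrays and 10.57, 9.15 and 9.97 on the non-transgenic arrays. Both were highest on non-transgenic array 1.

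Upstream of the response, 5 of 11 measured ligands and receptors passed the filter, with a median change of 0.13. At an unadjusted p under 0.05 in limma there were 0, where 18.5% of all genes passed. Those with the smallest p were Ifnar1, a chain of the type I receptor (0.21, limma adjusted p = 0.597), and Il10rb, a chain of the type III receptor (0.13, limma adjusted p = 0.528). Ifnb1, the gene of interferon beta, lay below the filter, between 2.21 and 2.30. Of 10 JAK-STAT genes 2 passed an unadjusted p of 0.05, beside the same 18.5% of all genes. They were Jak2, a kinase of the interferon gamma receptor (0.23, limma adjusted p = 0.194), and Pias1, an inhibitor of STAT signalling (-0.31, limma adjusted p = 0.188). Of 15 sensors and adaptors 1 passed, beside the same share, namely the kinase Tbk1 (0.25, limma adjusted p = 0.244). It was followed by Sting1, the adaptor of cytosolic DNA sensing (0.16, limma adjusted p = 0.306).

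Of 12 other class I genes 1 passed an unadjusted p of 0.05 in limma, where 18.5% of all genes did. This was Psme1, a subunit of the proteasome activator, with log2 values of 11.41, 11.29 and 11.42 on the transgenic arrays and 12.10, 11.67 and 12.06 on the non-transgenic arrays, all 3 transgenic values below all 3 others, and a change of -0.57 ± 0.13 (SE, n = 3 per group, limma adjusted p = 0.105). Calr, a chaperone of class I loading, came next (-0.14, limma adjusted p = 0.288). Psme1 and Calr were the 2 of 12 that were lower in the transgenic group without overlap, where 10.9% of all genes were. Nlrc5, the class I transactivator, was chosen after its values were seen and had log2 values of 2.71, 3.77 and 4.81 on the transgenic arrays and 5.41, 4.31 and 4.28 on the non-transgenic arrays, lowest on transgenic array 1 and highest on non-transgenic array 1. Of 11 other class II genes 2 passed an unadjusted p of 0.05, both higher in the transgenic group. Of all genes 18.5% passed in either direction and 10.6% as higher. The 2 class II genes were Ctss, the protease that trims the invariant chain (0.52, limma adjusted p = 0.176), and Cd86, a costimulatory ligand (0.55, limma adjusted p = 0.208).

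Markers of cells that could carry these genes were set beside the members. Of 13 macrophage markers 12 passed the filter, Itgam being below it. Their summed linear level was 7610 to 9060 on the transgenic arrays and 5820 to 6310 on the non-transgenic arrays, without overlap, with a median change of 0.49 and 0 calls in limma. Of the 12 markers 8 were higher at an unadjusted p under 0.05, where 10.6% of all genes were, and 8 were higher without overlap between the groups, where 14.3% of all genes were. The smallest p-values were those of Adgre1, the gene of a macrophage surface receptor, with a change of 0.68 (limma adjusted p = 0.0538), and Cd68, with a change of 0.96 (limma adjusted p = 0.0896). Of the 12 markers 10 had a change above 0 and 2 below it, namely Cd163 (-0.56, limma adjusted p = 0.347) and Mertk (-0.14, limma adjusted p = 0.587). The sum was highest on transgenic array 3, where class II genes were highest, but transgenic array 1, where they were lowest, lay at 7610, above every non-transgenic array. In whole tissue, fewer cells of a type and less RNA per cell cannot be told apart. The part of macrophages in the members' values was not tested.

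For the other cell types the sums are given for the transgenic arrays first. Of 8 dendritic cell markers 1 passed the filter, and Itgax, Flt3, Xcr1, Cd209a, Siglech, Batf3 and Ccr7 lay below it, with sums of 154 to 160 and 151 to 161. Of 6 B cell markers 1 passed, with Cd79a, Cd79b, Pax5, Blk and Cr2 below the filter and sums of 36.3 to 36.7 and 34.3 to 37.5. Of 7 T cell markers 4 passed, with Cd3d, Cd3g and Cd8b1 below the filter and sums of 106 to 114 and 100 to 110. Of 4 natural killer cell markers 0 passed, with sums of 20.3 to 27.5 and 20.2 to 20.6, the highest on transgenic array 3. None of these sums separated the groups, and with many of their markers below the filter a difference could hardly show. Of 5 neutrophil markers 2 passed, with sums of 91.2, 43.6 and 33.2 on the transgenic arrays and 70.7, 34.8 and 33.6 on the non-transgenic arrays. They were high on transgenic array 1 and non-transgenic array 1, the arrays where the interferon-induced genes were lowest and highest. All 7 endothelial markers passed, with sums of 3640 to 4300 and 3600 to 4390, and all 7 cardiomyocyte markers, with sums of 309000 to 312000 and 311000 to 316000. All 6 fibroblast markers passed, with sums of 16000 to 19500 on the transgenic arrays and 12000 to 13500 on the non-transgenic arrays, without overlap. Of the 6 markers 4 were higher without overlap, where 14.3% of all genes were. The part of these cells in the members' values was not tested.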

How the data were processed

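RNA of mouse heart was measured on 6 arrays, 3 per group, and the sample titles gave group and replicate number. Values were deposited as log2 signals, 1 per probe set and array, and made by the authors with GCRMA, per the submitters' processing notes (version not given in the sources used here). Other deposited files, instrument records, gave station, scan order and the typed name and no expression. Of 45101 probe sets 64 controls were left out. The annotation, of 2016, gave 34945 of the remaining 45037 a single gene, 932 several and 9160 none, and all 59 member probe sets matched the RefSeq gene table of GRCm38.p6 by gene ID.

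Groups were compared in R 4.3.3 with limma 3.58.1 (moderated linear model, 2-sided, Benjamini-Hochberg, threshold 0.05), for 22518 probe sets and, in a separate fit, for 11016 genes, and the fit was checked on simulated data. All members are named, and of each other pathway list the genes past the threshold or else the 2 with the smallest p. Cell type markers are given per list. Rtp4, Igtp, Nlrc5, Adgre1, Cd68, Cd163 and Mertk are exceptions. The members and lists were chosen with earlier results of these data known. Alternatives were other filters, scalings, variance models and weights, replicate number or station as terms, averaged probe sets per gene, and each array left out. The Xist level as a term was added after seeing the data. The number of arrays limits the precision.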

Additional observations from a re-analysis of the deposited data

How the results depend on the processing

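No member was called under any of the 18 alternatives, with limma adjusted p-values from 0.174 to 0.999. At an unadjusted p under 0.05 there were at most 4 member genes and 11 member probe sets, both without transgenic array 3. The sign turned in 25 of 29 genes under at least 1 alternative. Rsad2, Gbp2, Psmb9 and H2-K1 kept a change below 0 in all that were run. The 49 probe sets called over the whole table became 0 with the Xist level as a term, 15 without a filter, 0 with the replicate block, 2 with station as a term, 0 in station 2 alone, 99 with the stricter filter and 108 with trended variance. Leaving out each array gave 0 to 75 calls, 75 without transgenic array 1, 5 without non-transgenic array 1 and 0 without each of the other 4. At an unadjusted p under 0.05 limma gave 3126, 3324 and 3771 probe sets where the Xist term, the replicate block and station 2 alone gave 0, and 2532 to 3430 where leaving out an array did. Over all probe sets above the filter, same-numbered arrays correlated at -0.083, -0.174 and -0.007 in their deviations from the group means. Pairing within the members was not tested. The replicate block left 0 member calls. With it the unadjusted limma p of H2-K1 went from 0.253 to 0.0887 and that of Rsad2 from 0.0471 to 0.0775. The median change of the interferon-induced genes became -0.81 with station as a term and in station 2 alone. These are the same estimate, since station 3 held non-transgenic arrays only and both fits set the transgenic arrays against non-transgenic array 1. The group and this array cannot be told apart there. The median change of these genes was 0.07 with the Xist term and 0.13 with array weights, and with an array left out it ran from -0.32 to 0.25. In the probe set fit the lowest array weight was that of non-transgenic array 1, 0.534, beside 0.853 to 1.373 for the others. The sign turned with the Xist term in Ifit1 (0.22) and Usp18 (0.07), with array weights in Ifit1 (0.22), Usp18 (0.26), Irf9 (0.09), Stat2 (0.02), Tap1 (0.03) and H2-Ab1 (-0.05), with the mean of probe sets in H2-Aa (0.10), with median centring in Irf7 (-0.01) and H2-Ab1 (-0.01), and both with station as a term and in station 2 alone in Ifit2 (-0.21), Ifit3 (-0.78), Oas1a (-0.65), Oasl2 (-1.31), Ifih1 (-0.33), Bst2 (-0.12), Irf7 (-1.25), B2m (0.20), H2-D1 (0.12), H2-Aa (0.20), H2-Eb1 (0.47) and Cd74 (0.27). With an array left out, changes that turned sign ran over these ranges: Ifit1 -0.89 to 0.67, Usp18 -0.71 to 0.48, Oas1a -0.03 to 0.82, Oas2 -0.58 to 0.07, Oasl2 -0.32 to 0.71, Mx1 -0.08 to 0.01, Ifih1 -0.08 to 0.27, Gbp3 -0.71 to 0.06, Xaf1 -0.32 to 0.11, Bst2 -0.00 to 0.69, Cxcl10 -0.01 to 0.20, Irf1 -0.48 to 0.07, Irf7 -0.41 to 0.67, Irf9 -0.50 to 0.18, Stat2 -0.56 to 0.27, Psmb8 -0.44 to 0.07, Tap1 -0.85 to 0.31, B2m -0.53 to 0.04, H2-D1 -0.52 to 0.01, H2-Aa -0.53 to 0.27, H2-Ab1 -0.47 to 0.36, H2-Eb1 -0.54 to 0.32, Cd74 -0.49 to 0.26. The cause was not tested. Mx1 and Cxcl10 had no value under the stricter filter. With 3 arrays per group and a within-group SD of 0.62 at the members' median, changes much smaller than their intervals could not be detected.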
